A study of Mus musculus with 30 samples.

Results

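The effect of the Sp1 DNA-binding mutation was examined at the Flk1+ stage, where 4 of the 30 RNA-seq samples were compared: 2 of WT and 2 of Sp1ΔDBD/ΔDBD cells. The samples were chosen by their genotype and population labels alone, and every gene in the table was considered. Of 14685 genes, 14525 exceeded 1 FPKM (fragments scaled to transcript length and library size) in at least 1 of the 30 samples and were tested. All samples derived from E14, a mouse ESC line. WT cells carry intact Sp1, and in Sp1ΔDBD/ΔDBD cells both alleles lack the part of the gene that encodes the DNA-binding domain, so that a truncated protein can still be made. Both groups had been differentiated as embryoid bodies without any drug treatment, and Flk1+ cells had then been purified on magnetic columns with an antibody against Flk1. By the study's methods the day of embryoid body harvest depended on the cell line, and the labels give no day, so genotype and day cannot be told apart here. The labels give a single genotype per group, the study names E14 as the cell line, and libraries are in duplicate. No further line of either genotype is named among these samples. The mutation and other differences between the WT and mutant lines therefore cannot be told apart. The effect of the mutation, as named below, means the difference between these cells. The study's methods call the duplicates biological replicates, and neither source says whether they came from separate cultures. The p-values therefore measure the spread between duplicate samples, pooled over all 15 groups of the series and not over these 4 samples alone. The other samples of the series are ESC and the later HE1, HE2 and progenitor populations, and Sp3 knockout (Sp3-/-) cells of each stage.

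Sp1 is a ubiquitous zinc finger transcription factor. It binds GC boxes and, less tightly, GT boxes, which are common in promoters of housekeeping and developmental genes, and it shares these sites with its close relatives Sp3 and Sp4. Flk1, the product of Kdr, is the main receptor for VEGF-A, and Flk1+ cells of early embryoid bodies include the hemangioblast, a mesodermal precursor of blood and endothelium. The same purified population also holds precursors of cardiac and other lateral mesoderm, since Flk1 is not restricted to the blood lineage.

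To show the kind of DNA that Sp1 is known to recognise, the 250 bases before the annotated start are given for a few of the genes whose RNA changed. They were taken from RefSeq (GRCm38.p6, the assembly also known as mm10), are those of the reference strain and not of E14 cells, run 5′ to 3′ on the strand of the gene, and contain no annotated exon. Capitals mark the GC box GGGCGG and the GT box GGGTGTGG, searched on both strands, and where boxes overlap they were each counted. Among 32851 such windows in the table, 32.7% held at least 1 GC box and 3.2% a GT box. Mgmt and Fah fell steeply and Phlda3 fell as well, Sp4 rose, and Tek and Rhox5 rose.
Mgmt, chr7:136894336-136894585, plus strand, 4 GC boxes: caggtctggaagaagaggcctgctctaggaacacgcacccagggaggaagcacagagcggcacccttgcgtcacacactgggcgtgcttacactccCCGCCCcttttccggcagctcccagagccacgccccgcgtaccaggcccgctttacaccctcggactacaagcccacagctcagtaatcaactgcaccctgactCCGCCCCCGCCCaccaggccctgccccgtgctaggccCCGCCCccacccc
Fah, chr7:84605943-84606192, minus strand, 3 GC boxes and 1 GT box: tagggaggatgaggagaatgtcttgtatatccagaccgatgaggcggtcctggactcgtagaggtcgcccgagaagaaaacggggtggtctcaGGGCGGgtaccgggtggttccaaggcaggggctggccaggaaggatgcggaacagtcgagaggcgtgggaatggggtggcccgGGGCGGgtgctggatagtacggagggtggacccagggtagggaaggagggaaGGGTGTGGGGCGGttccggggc
Phlda3, chr1:135765835-135766084, plus strand, 2 GC boxes: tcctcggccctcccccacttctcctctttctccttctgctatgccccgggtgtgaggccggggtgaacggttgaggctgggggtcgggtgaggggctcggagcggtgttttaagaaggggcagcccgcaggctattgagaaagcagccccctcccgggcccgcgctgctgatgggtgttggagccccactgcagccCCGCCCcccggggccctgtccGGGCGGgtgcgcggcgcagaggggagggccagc
Sp4, chr12:118301441-118301690, minus strand, 4 GC boxes: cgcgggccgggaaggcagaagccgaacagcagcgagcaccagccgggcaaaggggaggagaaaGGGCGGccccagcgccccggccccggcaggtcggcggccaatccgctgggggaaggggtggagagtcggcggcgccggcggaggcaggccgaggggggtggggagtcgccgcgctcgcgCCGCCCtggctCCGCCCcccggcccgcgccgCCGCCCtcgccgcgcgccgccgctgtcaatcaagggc
Tek, chr4:94739039-94739288, plus strand, 0 boxes: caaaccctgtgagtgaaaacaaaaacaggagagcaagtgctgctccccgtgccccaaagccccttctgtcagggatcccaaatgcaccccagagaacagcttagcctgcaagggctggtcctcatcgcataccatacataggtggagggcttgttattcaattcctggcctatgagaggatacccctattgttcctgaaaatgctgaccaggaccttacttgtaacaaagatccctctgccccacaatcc
Rhox5, chrX:37754358-37754607, plus strand, 0 boxes: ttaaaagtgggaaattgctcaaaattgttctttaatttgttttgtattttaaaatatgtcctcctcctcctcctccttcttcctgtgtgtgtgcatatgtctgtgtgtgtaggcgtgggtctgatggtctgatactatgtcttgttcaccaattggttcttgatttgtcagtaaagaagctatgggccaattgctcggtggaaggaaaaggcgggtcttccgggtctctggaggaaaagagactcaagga
Windows with several GC boxes thus stood before genes of both directions. Windows without these letters stood before Tek and Rhox5, which rose, and before a second start of Mgmt, which fell. The match is a description of the letters and says nothing of what binds there. The window before a second annotated start of Mgmt, chr7:136912848-136913097, held neither box. The Rhox5 window lies upstream of the GENCODE position of that gene, which begins near chrX:37804800. It may therefore not be the promoter of the RNA that rose. A window was found for 75.5% of the genes called higher and 74.7% of those called lower, below the 80% set for such a comparison, so a test of box content between the groups is void and none is given.

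Levels of 7 markers of Flk1+ hemangioblast cells were read in the purified cells. Flk1 was the target of the purification in both groups, so its gene Kdr is no check of identity. Kdr, which encodes Flk1 itself, had 192 and 209 FPKM in WT and 165 and 257 FPKM in Sp1ΔDBD/ΔDBD cells and was not called (adjusted p = 0.989). Etv2, Tal1 and Gata2, which specify blood and endothelium, had means in the mutant of 34.7, 39.2 and 19.4 FPKM and in WT of 24.2, 32.7 and 13.3 FPKM, and none was called. Lmo2 and Fli1, described with the blood factors, were the 2 markers that rose, and Kdr, the defining receptor, was above 150 FPKM in each sample. The primitive erythroid globins Hba-x and Hbb-y were listed at 0 in all 4 samples. The markers of undifferentiated cells Pou5f1, Nanog, Sox2, Esrrb, Zfp42 and Tfcp2l1 summed to 41.5 and 32 FPKM in WT and to 54.2 and 21.8 FPKM in mutant replicates 1 and 2, so the mutant samples lay on either side of WT. In bulk RNA, fewer cells of a type and less RNA per cell cannot be told apart.

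The targeted gene was examined first. Sp1 RNA was 41.2 and 46 FPKM in WT and 27.2 and 28.9 FPKM in Sp1ΔDBD/ΔDBD cells, so both mutant samples lay below both WT samples (log2 fold change -0.63, SE 0.17, limma adjusted p = 0.0311). The call was lost when any 1 of the 4 samples was left out, with adjusted p = 0.0872 without WT replicate 1, 0.271 without WT replicate 2, 0.173 without mutant replicate 1 and 0.0958 without mutant replicate 2. The table gives whole genes, so the deleted part itself could not be read. Sp3, the nearest relative of Sp1, had 40.8 and 38.7 FPKM in WT and 43.3 and 49.3 FPKM in Sp1ΔDBD/ΔDBD cells and was not called (adjusted p = 0.622). Sp2 had 4.24 and 4.5 FPKM in WT and 4.76 and 3.85 FPKM in Sp1ΔDBD/ΔDBD cells, and the groups overlapped (adjusted p = 1.0). Sp4, a relative with the same binding preference, was the Sp gene that rose, from 3.16 and 2.46 FPKM in WT to 12.2 and 12.7 FPKM in mutant cells (log2 fold change 2.12, SE 0.23, limma adjusted p = 1.46e-05). It was called with any 1 of the 4 samples left out, with adjusted p of at most 8.13e-04, and its effect differed detectably neither from that in ESC (adjusted p = 0.822) nor from that in HE1 (adjusted p = 0.179). In Sp3-/- Flk1+ cells, whose comparison uses the same WT samples, Sp4 had 4.4 and 5.2 FPKM. Of the 23 Sp and Klf genes tested, 2 rose (Sp4 and Klf7) and 3 fell (Sp1, Klf4 and Klf10). Klf10, a TGF-β inducible factor, went from 46.7 and 47.8 FPKM to 27.6 and 30.7 FPKM (adjusted p = 0.0462), and Klf4, a factor of the pluripotent state, from 5.38 and 3.65 FPKM to 1.8 and 2.26 FPKM (adjusted p = 0.0489). Of these 5 calls, Sp4 alone was made with each of the 4 samples left out, and Klf7, Klf4 and Klf10 reached adjusted p of up to 0.247, 0.349 and 0.25.

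At the Flk1+ stage 424 genes were called higher and 380 lower in Sp1ΔDBD/ΔDBD than in WT cells at a limma adjusted p under 0.05, that is 2.92% and 2.62% of the genes tested. At an unadjusted p under 0.05 the same fit had 1465 genes higher and 1256 lower, 18.7% of all genes, against which the unadjusted counts of the gene lists below are to be read. Changes were measured as differences of mean log2(FPKM + 0.1) in a fit that estimates the spread between replicates from all 15 groups of the series. The median log2 fold change was 1.12 among the genes called higher and -1.36 among those called lower, and 34 genes fell by more than 8-fold against 9 that rose by as much. The changes of over 8-fold were thus mostly losses. In each of the 804 genes the mutant samples lay outside the range of the WT samples, which held for 30% of all genes in the upward and 25.2% in the downward direction. Fold changes are given with SE, the standard error of the fit. Left out in turn, WT replicate 1 gave 181 higher and 178 lower, WT replicate 2 gave 117 and 137, mutant replicate 1 gave 193 and 197, and mutant replicate 2 gave 211 and 252, with 184 of the 804 genes called each time. This order of left-out samples (WT replicate 1, WT replicate 2, mutant replicate 1, mutant replicate 2) is kept below. In limma on the 4 samples alone, 0 genes passed and 3449 had an unadjusted p under 0.05, and on the 6 Flk1+ samples alone 267 were higher and 337 lower. By a rule without a test, a ratio of mean FPKM + 0.1 above 2 and more than 3 FPKM on average where it was higher, 174 genes were higher and 279 lower (1.2% and 1.92% of genes), of which limma called 108 and 159. With 2 samples against 2, an exact permutation test cannot give a p below 0.333.

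**Figure D1:**
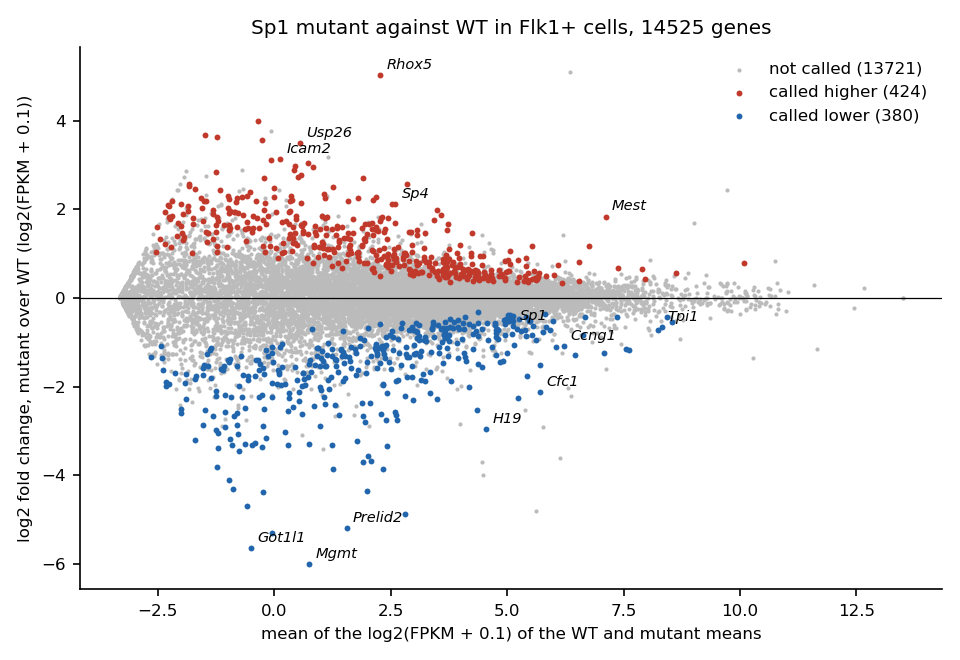
Difference in log2(FPKM + 0.1) between the mean of 2 Sp1ΔDBD/ΔDBD and 2 WT Flk1+ samples (vertical axis) against the mean of both levels (horizontal axis) for 14525 genes. Red points are the 424 genes called higher, blue points the 380 called lower, and grey points the rest. Mgmt, at -6.01, lies lowest and Rhox5, at 5.02, highest among the called genes named.

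The 12 largest rises, among called genes that averaged over 3 FPKM in at least 1 group, were all of genes with less than 4 FPKM in either WT sample. Rhox5, a homeobox gene of the X chromosome active in germ line and placenta, had 0.851 and 0.643 FPKM in WT and 32.8 and 22.4 FPKM in Sp1ΔDBD/ΔDBD cells (log2 fold change 5.02, SE 0.29, limma adjusted p = 4.28e-09). Usp26, an X-linked deubiquitinase of the testis, had 0.303 and 0.364 FPKM in WT and 5.4 and 4.17 FPKM in Sp1ΔDBD/ΔDBD cells (log2 fold change 3.49, SE 0.50, limma adjusted p = 2.24e-04). Both X-linked genes were low in both WT samples and well above them in both mutant samples. Icam2, an adhesion molecule of endothelium, had 0.259 and 0.28 FPKM in WT and 3.25 and 3.01 FPKM in Sp1ΔDBD/ΔDBD cells (log2 fold change 3.13, SE 0.27, limma adjusted p = 1.45e-06). Aim2, a cytosolic DNA sensor, had 0.438 and 0.343 FPKM in WT and 4.26 and 2.88 FPKM in Sp1ΔDBD/ΔDBD cells (adjusted p = 1.94e-04), and Ulbp1, a ligand of the activating NKG2D receptor, had 0.322 and 0.448 FPKM in WT and 3.81 and 3.6 FPKM in Sp1ΔDBD/ΔDBD cells (adjusted p = 4.66e-06). Aim2 and Ulbp1 lay under 0.5 FPKM in WT and above 2 FPKM in every mutant sample. Genes with roles in immunity had no common direction. Tap1 and Ifitm2, for example, were called lower (log2 fold change -2.41 and -1.24, limma adjusted p = 1.55e-04 and 4.70e-04). Otx2, a homeobox factor of epiblast and forebrain, had 3.53 and 1.92 FPKM in WT and 26.2 and 9.82 FPKM in Sp1ΔDBD/ΔDBD cells (log2 fold change 2.57, SE 0.41, limma adjusted p = 6.35e-04). Optc, which encodes the extracellular matrix protein opticin, had 1.68 and 0.879 FPKM in WT and 15 and 4.87 FPKM in Sp1ΔDBD/ΔDBD cells (adjusted p = 0.00133). In both genes mutant replicate 1 was more than 2-fold above mutant replicate 2. Ctse, the protease cathepsin E, had 0.452 and 0.434 FPKM in WT and 2.19 and 5.84 FPKM in Sp1ΔDBD/ΔDBD cells (adjusted p = 6.52e-05), with mutant replicate 2 the higher one. Gap43, a growth-cone protein of neurons, had 0.271 and 0.655 FPKM in WT and 2.99 and 3.91 FPKM in Sp1ΔDBD/ΔDBD cells (adjusted p = 0.00824). Ctla2b, an inhibitor of cathepsin-like proteases, had 0.372 and 0.721 FPKM in WT and 5.29 and 4.17 FPKM in Sp1ΔDBD/ΔDBD cells (adjusted p = 1.08e-04). For both, the lowest mutant sample was over 4-fold above the highest WT sample. Tsga10, a testis gene, had 0.754 and 1.04 FPKM in WT and 4.86 and 6.29 FPKM in Sp1ΔDBD/ΔDBD cells (adjusted p = 3.53e-04), and Jakmip1, a protein that binds microtubules and Jak kinases, had 0.937 and 0.142 FPKM in WT and 5.1 and 3.2 FPKM in Sp1ΔDBD/ΔDBD cells (adjusted p = 0.00269). Of the 12 genes, 10 were called with any 1 sample left out. The exceptions were Jakmip1, with adjusted p = 6.48e-04 without WT replicate 1, 0.0979 without WT replicate 2, 0.0447 without mutant replicate 1 and 0.0101 without mutant replicate 2, and Gap43, with 0.121, 0.0229, 0.0393 and 0.0711 in the same order.

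**Figure D2:**
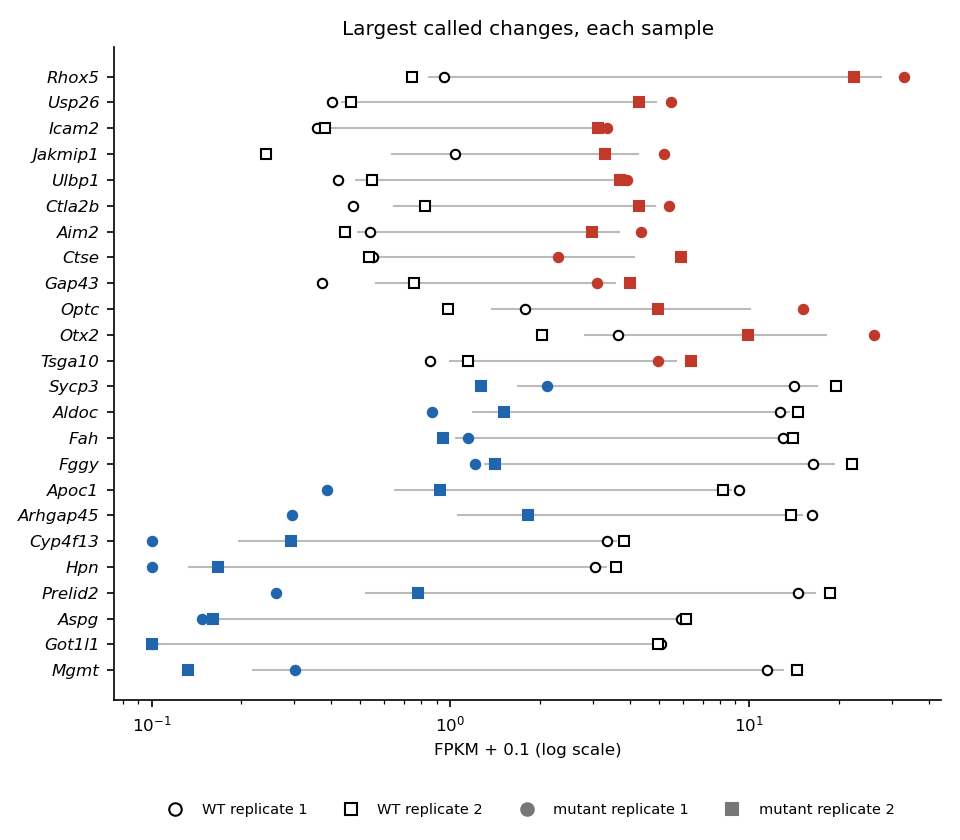
FPKM + 0.1 on a log axis in each Flk1+ sample for the 12 largest called rises (red) and 12 largest called falls (blue). Open symbols are WT, filled symbols Sp1ΔDBD/ΔDBD, circles replicate 1, squares replicate 2, the grey line joins the group means, and values listed at 0 stand at 0.1. In each gene the WT and mutant samples are separated, and Got1l1 is listed at 0 in both mutant samples.

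The 12 largest falls, chosen by the same criteria, included 8 genes for enzymes, several of them best known from the liver. Mgmt, the methyltransferase that repairs O6-methylguanine in DNA, had 11.4 and 14.4 FPKM in WT and 0.203 and 0.0324 FPKM in Sp1ΔDBD/ΔDBD cells (log2 fold change -6.01, SE 0.35, limma adjusted p = 4.28e-09). Fah, fumarylacetoacetate hydrolase, the last enzyme of tyrosine breakdown, had 12.9 and 13.9 FPKM in WT and 1.05 and 0.845 FPKM in Sp1ΔDBD/ΔDBD cells (log2 fold change -3.70, SE 0.42, limma adjusted p = 2.54e-05). Both therefore went from moderate levels in WT to about 1 FPKM or less. Aspg, an asparaginase, had 5.84 and 6.06 FPKM in WT and 0.0479 and 0.0602 FPKM in Sp1ΔDBD/ΔDBD cells (log2 fold change -5.30, SE 0.47, limma adjusted p = 2.21e-06). Fggy, a carbohydrate kinase, had 16.2 and 22 FPKM in WT and 1.11 and 1.32 FPKM in Sp1ΔDBD/ΔDBD cells (log2 fold change -3.86, SE 0.30, limma adjusted p = 3.26e-07). Aldoc, the neural and hypoxia-responsive aldolase, had 12.6 and 14.5 FPKM in WT and 0.769 and 1.42 FPKM in Sp1ΔDBD/ΔDBD cells (log2 fold change -3.57, SE 0.41, limma adjusted p = 2.60e-05). In these genes every WT sample was more than 8-fold above every mutant sample. Got1l1, a relative of aspartate aminotransferase, had 4.97 and 4.85 FPKM in WT and was listed at 0 in both mutant samples (limma adjusted p = 4.45e-06). Hpn, the transmembrane protease hepsin, had 2.96 and 3.49 FPKM in WT and 0 and 0.0673 FPKM in Sp1ΔDBD/ΔDBD cells (adjusted p = 3.40e-05), and Cyp4f13, a cytochrome P450, had 3.24 and 3.72 FPKM in WT and 0 and 0.193 FPKM in Sp1ΔDBD/ΔDBD cells (adjusted p = 1.52e-05). Both were listed at 0 in mutant replicate 1. Apoc1, an apolipoprotein, had 9.15 and 8.11 FPKM in WT and 0.288 and 0.821 FPKM in Sp1ΔDBD/ΔDBD cells (adjusted p = 4.16e-04), and Arhgap45, a GTPase activating protein, had 16.1 and 13.7 FPKM in WT and 0.196 and 1.72 FPKM in Sp1ΔDBD/ΔDBD cells (adjusted p = 2.82e-05). Prelid2, a gene of the family of mitochondrial lipid-transfer proteins, had 14.4 and 18.5 FPKM in WT and 0.16 and 0.681 FPKM in Sp1ΔDBD/ΔDBD cells (adjusted p = 0.00285), and Sycp3, a component of the meiotic synaptonemal complex, had 14 and 19.5 FPKM in WT and 2.0 and 1.17 FPKM in Sp1ΔDBD/ΔDBD cells (adjusted p = 0.0147). Of the 12 genes, 10 again were called with any 1 sample left out. The others were Prelid2, with adjusted p = 0.0565 without mutant replicate 1, and Sycp3, with 0.0627 without WT replicate 1, 0.142 without WT replicate 2, 0.0484 without mutant replicate 1 and 0.117 without mutant replicate 2. Features whose reads may be shared with other transcripts were kept apart. The largest rises among these were 2610307P16Rik (log2 fold change 1.43), Ube2d-ps (0.92) and 4930453N24Rik (0.84), and the largest falls Rplp2-ps1 (-4.87), C330024D21Rik (-3.68) and 2410003L11Rik (-2.74).

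Many genes of endothelium rose in Sp1ΔDBD/ΔDBD Flk1+ cells. Of 27 endothelial genes tested, 14 rose, 1 fell and 12 were not called, and the median log2 fold change of the list was 1.25, beside 0.022 over all genes. The 14 rises were Icam2, Cdh5, Tek, Tie1, Rasip1, Stab1, Pecam1, S1pr1, Plvap, Esam, Robo4, Cd34, Emcn and Afap1l1. Cdh5, the adhesion molecule of endothelial junctions, had 1.62 and 2.09 FPKM in WT and 5.84 and 14.8 FPKM in Sp1ΔDBD/ΔDBD cells (log2 fold change 2.28, SE 0.30, limma adjusted p = 1.11e-04). Tek, the angiopoietin receptor Tie2, had 1.22 and 1.29 FPKM in WT and 4.14 and 8.94 FPKM in Sp1ΔDBD/ΔDBD cells (log2 fold change 2.19, SE 0.30, limma adjusted p = 1.50e-04), and its partner receptor Tie1 had 0.664 and 0.912 FPKM in WT and 2.62 and 7.2 FPKM in Sp1ΔDBD/ΔDBD cells (log2 fold change 2.34, SE 0.45, limma adjusted p = 0.00362). Both mutant samples exceeded both WT samples in each, and mutant replicate 2 was over 2-fold above mutant replicate 1. Rasip1, an effector of Ras in vessel lumen formation, had 2.42 and 2.19 FPKM in WT and 5.46 and 7.6 FPKM in Sp1ΔDBD/ΔDBD cells (log2 fold change 1.44, SE 0.21, limma adjusted p = 2.96e-04). Pecam1, the platelet and endothelial adhesion molecule, had 1.39 and 1.99 FPKM in WT and 2.82 and 6.75 FPKM in Sp1ΔDBD/ΔDBD cells (adjusted p = 0.00654), and the sphingosine-1-phosphate receptor S1pr1 had 1.54 and 1.24 FPKM in WT and 2.8 and 3.45 FPKM in Sp1ΔDBD/ΔDBD cells (adjusted p = 0.00966). Esam, a junction molecule, had 2.49 and 1.55 FPKM in WT and 4.5 and 8.22 FPKM in Sp1ΔDBD/ΔDBD cells (adjusted p = 0.0234). Plvap, of endothelial fenestrae, had 1.69 and 1.56 FPKM in WT and 3.01 and 6.11 FPKM in Sp1ΔDBD/ΔDBD cells (adjusted p = 0.0192). Levels of all these genes remained low to moderate, at most 14.8 FPKM in a mutant sample. Eng, the TGF-β co-receptor endoglin, was the member that fell, with 8.13 and 6.63 FPKM in WT and 3.47 and 4.81 FPKM in Sp1ΔDBD/ΔDBD cells (log2 fold change -0.83, SE 0.21, limma adjusted p = 0.0223). Flt1, the second VEGF-A receptor, had 5.8 and 4.48 FPKM in WT and 8.0 and 18.7 FPKM in Sp1ΔDBD/ΔDBD cells and missed the threshold although the groups did not overlap (adjusted p = 0.0638). Of the 14 rises, 13 were higher in mutant replicate 2 than in mutant replicate 1. The endothelial rises numbered 7, 7, 14 and 4 with these samples left out in turn, and on the 6 Flk1+ samples alone 4. The summed level of the endothelial markers Cdh5, Pecam1, Tek, Tie1 and Esam was 7.38 and 7.83 FPKM in WT and 19.9 and 45.9 FPKM in mutant samples, and whether this reflects more endothelial cells or more RNA per cell was not tested.

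Some transcription factors upstream of blood and endothelium also rose. Of 24 factors tested, 4 rose, 0 fell and 20 were not called, with a median log2 fold change of 0.58, and at an unadjusted p under 0.05 limma had 9 higher and 0 lower. Fli1, an Ets factor at the top of the hemangioblast network, had 4.9 and 4.07 FPKM in WT and 12.1 and 13.5 FPKM in Sp1ΔDBD/ΔDBD cells (log2 fold change 1.5, SE 0.30, limma adjusted p = 0.00480). Its relative Erg had 0.962 and 1.11 FPKM in WT and 2.81 and 5.52 FPKM in Sp1ΔDBD/ΔDBD cells (log2 fold change 1.84, SE 0.32, limma adjusted p = 0.00141). Lmo2, the adaptor that joins Tal1 to Gata factors, had 32.3 and 23.3 FPKM in WT and 50.9 and 49.1 FPKM in Sp1ΔDBD/ΔDBD cells (adjusted p = 0.0214), and Sox18, a vascular Sox factor, had 0.474 and 0.541 FPKM in WT and 2.93 and 2.5 FPKM in Sp1ΔDBD/ΔDBD cells (adjusted p = 0.00914). The groups were separate in all 4 genes. Runx1, which is needed for blood formation from hemogenic endothelium, had 5.46 and 7.53 FPKM in WT and 7.61 and 12 FPKM in Sp1ΔDBD/ΔDBD cells and was not called (adjusted p = 0.771). Gata1, the erythroid factor, had 2.46 and 3.1 FPKM in WT and 0.896 and 2.45 FPKM in Sp1ΔDBD/ΔDBD cells (adjusted p = 0.681), and Hhex, a homeobox factor, had 4.63 and 3.57 FPKM in WT and 6.18 and 9.06 FPKM in Sp1ΔDBD/ΔDBD cells (adjusted p = 0.0808). With a sample left out, in the same order, 3, 2, 4 and 3 factors were called higher, and on the 6 Flk1+ samples alone 2. Of 17 erythroid genes 1 rose, Car2 (carbonic anhydrase 2), with 68.9 and 71.3 FPKM in WT and 137 and 112 FPKM in Sp1ΔDBD/ΔDBD cells (log2 fold change 0.82, SE 0.13, limma adjusted p = 6.77e-04). Of 17 genes of the VEGF and angiopoietin pathway 2 rose, the receptors Tek and Tie1 described above, while the ligand Vegfa had 18.1 and 22.9 FPKM in WT and 10.4 and 19.8 FPKM in Sp1ΔDBD/ΔDBD cells (adjusted p = 0.692).

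**Figure D3:**
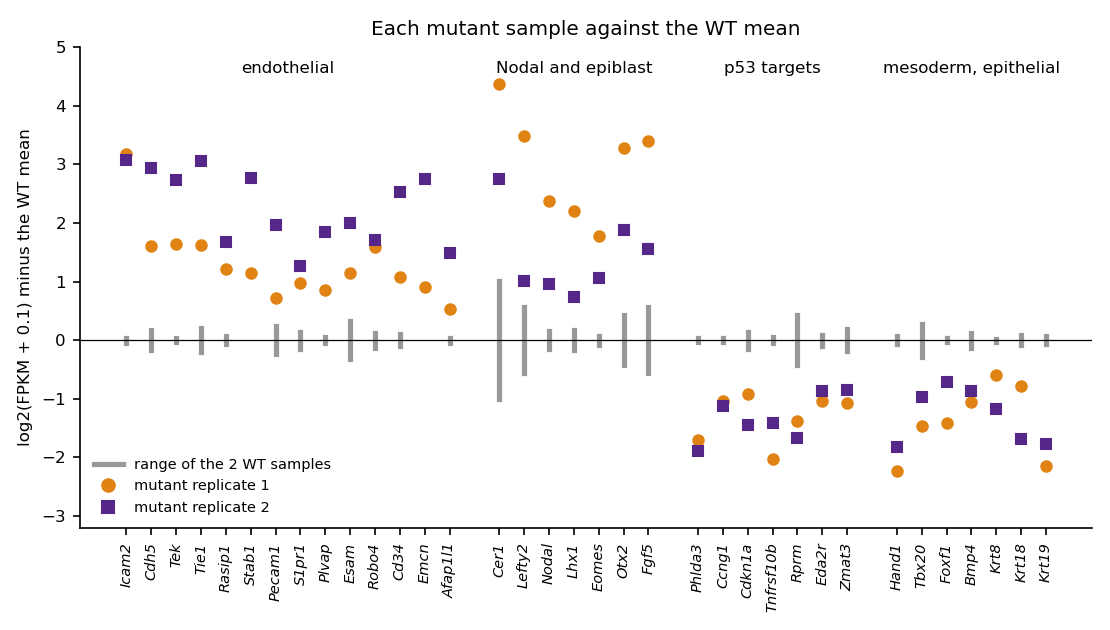
Log2(FPKM + 0.1) of each Sp1ΔDBD/ΔDBD Flk1+ sample minus the mean of the WT samples. Shown are endothelial genes called higher, selected Nodal pathway and epiblast genes with higher values, p53 targets called lower, and selected mesodermal and epithelial genes with lower values. The direction of each group was thus set by the choice of genes. Circles are mutant replicate 1, squares mutant replicate 2, and grey bars the range of the 2 WT samples, which is nil for Emcn, listed at 0 in both. Mutant replicate 2 is the higher one in most endothelial genes shown and mutant replicate 1 in all Nodal and epiblast genes shown. Both lie below WT in the other groups, whose genes were chosen for lower values. The mesodermal and epithelial genes were not called.

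Nodal, its inhibitors and a target rose, while the primitive streak and Nodal list had no common direction. Of its 27 genes tested, 5 rose and 1 fell, 15 had higher and 12 lower values, and the median was 0.027. Nodal, the ligand, had 0.633 and 0.49 FPKM in WT and 3.29 and 1.19 FPKM in Sp1ΔDBD/ΔDBD cells (log2 fold change 1.67, SE 0.42, limma adjusted p = 0.0233). The feedback inhibitors of Nodal are Lefty1, Lefty2 and Cer1. Lefty2 had 1.81 and 0.778 FPKM in WT and 14.4 and 2.51 FPKM in Sp1ΔDBD/ΔDBD cells (log2 fold change 2.25, SE 0.53, limma adjusted p = 0.0147), Cer1 had 0.302 and 0 FPKM in WT and 4.05 and 1.25 FPKM in Sp1ΔDBD/ΔDBD cells (adjusted p = 4.70e-04), and Lefty1 had 0.0244 and 0 FPKM in WT and 1.09 and 0.0850 FPKM in Sp1ΔDBD/ΔDBD cells (adjusted p = 0.0462). Lhx1, a homeobox target of the pathway, had 11.9 and 9.39 FPKM in WT and 48.9 and 17.7 FPKM in Sp1ΔDBD/ΔDBD cells (adjusted p = 0.0466). Ligand, inhibitors and target were all highest in mutant replicate 1. The co-receptor Cfc1 (Cryptic) went the other way, from 99.4 and 108 FPKM in WT to 15.1 and 37.1 FPKM in mutant cells (log2 fold change -2.12, SE 0.38, limma adjusted p = 0.00203). Eomes, a T-box factor of the streak, had 46.6 and 41.9 FPKM in WT and 151 and 91.9 FPKM in Sp1ΔDBD/ΔDBD cells and missed the threshold (adjusted p = 0.0771), whereas T (Brachyury) had 41.9 and 31.6 FPKM in WT and 46.1 and 39.6 FPKM in Sp1ΔDBD/ΔDBD cells (adjusted p = 0.916). Otx2, a gene of the epiblast and neuroectoderm, is described above. Fgf5, the growth factor of the primed epiblast, had 0.445 and 0.149 FPKM in WT and 3.79 and 0.984 FPKM in Sp1ΔDBD/ΔDBD cells (adjusted p = 0.00802). Of 27 pluripotency genes Dppa2 rose, from 0.118 and 0.273 FPKM to 4.72 and 1.15 FPKM (adjusted p = 0.0214), and Prdm14, Fgf4 and Klf4 fell. Prdm14, a regulator of naive pluripotency and germ cells, had 1.73 and 2.64 FPKM in WT and 0.607 and 0.39 FPKM in Sp1ΔDBD/ΔDBD cells (log2 fold change -1.93, SE 0.35, limma adjusted p = 0.00212), and Fgf4 had 1.42 and 1.57 FPKM in WT and 0.758 and 0.597 FPKM in Sp1ΔDBD/ΔDBD cells (adjusted p = 0.0176). Pou5f1 itself had 27.4 and 19.6 FPKM in WT and 39.7 and 14.4 FPKM in Sp1ΔDBD/ΔDBD cells, with mutant replicate 1 above and mutant replicate 2 below both WT samples (adjusted p = 1.0), and its part in these changes was not tested. Primitive streak and Nodal genes called higher numbered 2, 1, 1 and 6 without these samples in turn, and on the 6 Flk1+ samples alone all 5 rises missed the threshold, with adjusted p from 0.104 for Cer1 to 0.254 for Lefty1. The summed level of the streak markers T, Eomes and Mesp1 was 140.2 and 113 FPKM in WT and 237 and 154 FPKM in mutant replicates 1 and 2. Most of this difference was Eomes, while Mesp1, a factor of early mesoderm, had 51.7 and 39.1 FPKM in WT and 39.8 and 22 FPKM in mutant samples (adjusted p = 0.334).

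FGF signalling genes were called in both directions. Of 26 tested, Fgf5 and Spred3, an inhibitor of Ras signalling, rose and Fgf4 and Fgfr2 fell, and the median was 0.33. Fgfr2, a receptor of epithelial and mesodermal FGF signals, had 19.5 and 29.2 FPKM in WT and 3.48 and 6.7 FPKM in Sp1ΔDBD/ΔDBD cells (log2 fold change -2.28, SE 0.60, limma adjusted p = 0.0300). Spred3 had 1.03 and 1.04 FPKM in WT and 4.17 and 2.49 FPKM in Sp1ΔDBD/ΔDBD cells (adjusted p = 0.0105). Dusp6, a phosphatase induced by ERK, had 20.5 and 13.6 FPKM in WT and 56.1 and 22.2 FPKM in Sp1ΔDBD/ΔDBD cells and was not called (adjusted p = 0.0689). With the samples left out in order, 1, 0, 0 and 3 FGF genes were called higher and 0, 0, 1 and 2 lower, and on the 6 Flk1+ samples alone 0 and 0, where the full fit had 4 and 4 at an unadjusted p under 0.05.

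Lateral plate and cardiac genes had no common direction in mutant Flk1+ cells. Of 21 tested, 10 had higher and 11 lower values, with a median log2 fold change of -0.045. Some abundant members, and some genes of other lists, had lower values in the mutant without passing the test, and were chosen after their values were seen. Hand1, a factor of lateral, extraembryonic and cardiac mesoderm, had 153 and 168 FPKM in WT and 33.9 and 45.1 FPKM in Sp1ΔDBD/ΔDBD cells (log2 fold change -2.03, SE 1.22, limma adjusted p = 0.414). Tbx20, a cardiac T-box factor, had 54.9 and 81.3 FPKM in WT and 24.2 and 33.9 FPKM in Sp1ΔDBD/ΔDBD cells (adjusted p = 0.328), and Foxf1, of lateral mesoderm, had 37.9 and 36.2 FPKM in WT and 13.9 and 22.7 FPKM in Sp1ΔDBD/ΔDBD cells (adjusted p = 0.442). The WT and mutant values did not overlap in any of the 3 genes. The ligand Bmp4 had 79.1 and 94.8 FPKM in WT and 41.8 and 47.4 FPKM in Sp1ΔDBD/ΔDBD cells (adjusted p = 0.288), and the keratins Krt18 and Krt19 had 102 and 115 FPKM in WT and 62.9 and 33.5 FPKM in Sp1ΔDBD/ΔDBD cells and 9.0 and 9.89 FPKM in WT and 2.05 and 2.7 FPKM in Sp1ΔDBD/ΔDBD cells (adjusted p = 0.754 and 0.568). On the 6 Flk1+ samples alone Hand1 and Bmp4 passed, with adjusted p = 0.0324 and 0.0383, while Tbx20, Foxf1, Krt18 and Krt19 did not (0.0771, 0.179, 0.132 and 0.0721). Of the 21 lateral plate and cardiac genes 0 were called, and at an unadjusted p under 0.05 limma had 2 higher and 1 lower. The summed level of the markers Hand1, Gata4, Foxf1, Tbx5 and Nkx2-5 was 231 and 245 FPKM in WT and 86.1 and 116 FPKM in mutant samples. Hand1 and Foxf1 made up the difference. Gata4, a cardiac and endodermal factor, had 38.5 and 39.5 FPKM in WT and 35.6 and 45.3 FPKM in mutant samples, and Tbx5, of the heart field, had 1.3 and 0.899 FPKM in WT and 1.85 and 2.91 FPKM in mutant samples. Nkx2-5 was below 1 FPKM in all 4 samples. Des, the muscle intermediate filament desmin, was the contractile gene of 27 tested that was called, from 8.19 and 8.44 FPKM to 1.59 and 1.47 FPKM (log2 fold change -2.37, SE 0.45, limma adjusted p = 0.00316).

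Several targets of p53 fell in the mutant. Of 30 cell cycle inhibitors and p53 targets tested, 7 fell, 0 rose and 23 were not called, and the median log2 fold change was -0.33. At an unadjusted p under 0.05 limma had 4 higher and 14 lower. Phlda3, an inhibitor of Akt, had 13.5 and 12.9 FPKM in WT and 4.0 and 3.5 FPKM in Sp1ΔDBD/ΔDBD cells (log2 fold change -1.79, SE 0.16, limma adjusted p = 2.21e-06). Ccng1, cyclin G1, had 106 and 110.3 FPKM in WT and 52.8 and 49.4 FPKM in Sp1ΔDBD/ΔDBD cells (log2 fold change -1.08, SE 0.16, limma adjusted p = 4.09e-04). Cdkn1a, the CDK inhibitor p21, had 7.78 and 9.5 FPKM in WT and 4.5 and 3.11 FPKM in Sp1ΔDBD/ΔDBD cells (log2 fold change -1.18, SE 0.20, limma adjusted p = 0.00106). All 3 were lower in each mutant sample than in each WT sample, Ccng1 at a level of over 100 FPKM in WT. The death receptor Tnfrsf10b had 15.7 and 16.9 FPKM in WT and 3.91 and 6.06 FPKM in Sp1ΔDBD/ΔDBD cells (adjusted p = 0.00249), and the ectodysplasin receptor Eda2r had 11.9 and 13.7 FPKM in WT and 6.17 and 6.95 FPKM in Sp1ΔDBD/ΔDBD cells (adjusted p = 0.00892). Rprm, an arrest mediator, had 0.61 and 1.19 FPKM in WT and 0.268 and 0.20 FPKM in Sp1ΔDBD/ΔDBD cells (adjusted p = 0.00502), and Zmat3, an RNA-binding p53 target, had 16.4 and 21.2 FPKM in WT and 8.84 and 10.3 FPKM in Sp1ΔDBD/ΔDBD cells (adjusted p = 0.0472). Mdm2, the ubiquitin ligase of p53, had 29.8 and 29.2 FPKM in WT and 21.1 and 22.7 FPKM in Sp1ΔDBD/ΔDBD cells and was not called (adjusted p = 0.118). Trp53 itself, the gene for p53, had 92.1 and 81.1 FPKM in WT and 111 and 104 FPKM in Sp1ΔDBD/ΔDBD cells (adjusted p = 0.42), with both mutant samples above both WT samples. The p53 list had 6, 4, 4 and 5 falls with the samples left out in that order.

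Glycolysis and hypoxia genes included a further set of falls. Of 34 tested 6 fell, 0 rose and 28 were not called, the median was -0.50, and at an unadjusted p under 0.05 limma had 0 higher and 13 lower. Tpi1, triosephosphate isomerase, had 402 and 395 FPKM in WT and 231 and 277 FPKM in Sp1ΔDBD/ΔDBD cells (log2 fold change -0.65, SE 0.12, limma adjusted p = 0.00285). The glucose transporter Slc2a3 had 259.6 and 319.9 FPKM in WT and 94.1 and 173 FPKM in Sp1ΔDBD/ΔDBD cells (log2 fold change -1.18, SE 0.28, limma adjusted p = 0.0172), and Eno2, the neuronal enolase, had 3.28 and 4.88 FPKM in WT and 0.884 and 0.849 FPKM in Sp1ΔDBD/ΔDBD cells (log2 fold change -2.09, SE 0.44, limma adjusted p = 0.00701). Aldoc has been described above. Egln3, an oxygen-sensing prolyl hydroxylase, had 37.7 and 44.6 FPKM in WT and 21.2 and 24.6 FPKM in Sp1ΔDBD/ΔDBD cells (adjusted p = 0.0466), and Pfkfb3, which raises glycolytic flux, had 7.61 and 8.15 FPKM in WT and 4.34 and 4.12 FPKM in Sp1ΔDBD/ΔDBD cells (adjusted p = 0.0272). Of the 34 genes 27 had lower and 7 higher values in the mutant. Ldha, lactate dehydrogenase A, was among the 7, with 925 and 906 FPKM in WT and 1038 and 1125 FPKM in Sp1ΔDBD/ΔDBD cells, and was not called (adjusted p = 0.328). Slc16a3, a lactate exporter, had 129 and 127 FPKM in WT and 59.9 and 84.7 FPKM in Sp1ΔDBD/ΔDBD cells (adjusted p = 0.0635). Of the 34 genes, 30 were higher in mutant replicate 2 than in mutant replicate 1. On the 6 Flk1+ samples alone 4 members were called lower. A GC and length correction with a replicate block gave more calls over all genes, 679 higher and 635 lower. Falls of this list numbered 3, 2, 2 and 4 with each sample left out in order, and 12 with a GC and length correction and a replicate block together.

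Among the germ line genes of the list, calls were more often rises than falls. Of 28 tested, 5 rose (Rhox5, Tex11, Stk31, Ddx4 and Prdm1) and 2 fell (Sycp3 and Cpt1c), with a median of 0.52. The list does not hold all such genes, and those outside it went both ways. The meiosis genes Dmc1 and Syce2 fell (log2 fold change -4.31 and -1.43, limma adjusted p = 2.34e-04 and 4.49e-04). Stag3, also of meiosis, rose (log2 fold change 1.87, limma adjusted p = 0.0160). Tex11, an X-linked gene of meiosis, was listed at 0 in both WT samples and at 1.33 and 1.03 FPKM in the mutant samples (limma adjusted p = 2.60e-05). Ddx4, the germ cell helicase Vasa, had 0.447 and 0.526 FPKM in WT and 3.86 and 1.18 FPKM in Sp1ΔDBD/ΔDBD cells (adjusted p = 0.0216). Prdm1 (Blimp1), which specifies germ cells and acts in other lineages, had 0.213 and 0.156 FPKM in WT and 1.2 and 0.812 FPKM in Sp1ΔDBD/ΔDBD cells (adjusted p = 0.00178). Each of these was below 1 FPKM in WT. Cpt1c, a carnitine palmitoyltransferase relative of the brain and testis, had 11.5 and 11.7 FPKM in WT and 2.72 and 3.51 FPKM in Sp1ΔDBD/ΔDBD cells (log2 fold change -1.88, SE 0.20, limma adjusted p = 1.04e-05). All 5 rises were higher in mutant replicate 1 than in mutant replicate 2. Leaving out the samples in order gave 3, 4, 3 and 8 germ line rises, and on the 6 Flk1+ samples alone 2.

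Among 42 imprinted genes tested 2 rose and 2 fell, with a median of 0.077. Mest, a paternally expressed gene, had 61.7 and 82.6 FPKM in WT and 193 and 336 FPKM in Sp1ΔDBD/ΔDBD cells (log2 fold change 1.83, SE 0.27, limma adjusted p = 3.35e-04), so each mutant sample was over 2-fold above each WT sample. Copg2, its neighbor on chromosome 6, which may share reads with it, had 34.4 and 37.1 FPKM in WT and 47 and 58.8 FPKM in Sp1ΔDBD/ΔDBD cells (adjusted p = 0.0229). H19, the maternally expressed noncoding RNA, had 46.9 and 77.5 FPKM in WT and 4.48 and 13 FPKM in Sp1ΔDBD/ΔDBD cells (log2 fold change -2.96, SE 0.60, limma adjusted p = 0.00517). The amino acid transporter Slc38a4 had 182 and 197 FPKM in WT and 134 and 146 FPKM in Sp1ΔDBD/ΔDBD cells (adjusted p = 0.0398). In the same left-out order, 1, 1, 2 and 1 imprinted genes were called higher and 1, 0, 0 and 2 lower.

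Among genes described in textbooks as Sp1 targets, calls were falls. Of 18 tested, 3 fell (Tert, Tk1 and Cdkn1a), which is 16.7% beside 2.62% of all genes, 0 rose and 15 were not called, with a median of -0.22 and, at an unadjusted p under 0.05, 0 higher and 4 lower by limma. Tert, the telomerase reverse transcriptase, had 2.41 and 3.6 FPKM in WT and 0.40 and 0.509 FPKM in Sp1ΔDBD/ΔDBD cells (log2 fold change -2.47, SE 0.54, limma adjusted p = 0.00968). Tk1, thymidine kinase, had 29.4 and 27.9 FPKM in WT and 18.5 and 19.9 FPKM in Sp1ΔDBD/ΔDBD cells (log2 fold change -0.57, SE 0.12, limma adjusted p = 0.00892). Falls among the 18 genes numbered 2, 1, 1 and 3 with the samples left out in order.

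The study gave bulk RNA values of some genes over the populations, and their Flk1+ values are given for this reason. From FPKM values, without a test named, it described Mdk as modestly lower at every stage but ESC. It described differences in Crip1 from the ESC stage on. Mdk, the growth factor midkine, had 249 and 219.7 FPKM in WT and 220.4 and 153 FPKM in Sp1ΔDBD/ΔDBD cells (adjusted p = 0.67), and Crip1, a small LIM protein, had 12.3 and 9.98 FPKM in WT and 7.49 and 6.91 FPKM in Sp1ΔDBD/ΔDBD cells (adjusted p = 0.831). Cd59a, a complement inhibitor, had 2.77 and 2.96 FPKM in WT and 2.75 and 1.6 FPKM in Sp1ΔDBD/ΔDBD cells (adjusted p = 0.57), and Stat6, a cytokine signal transducer, had 12 and 11.5 FPKM in WT and 4.45 and 11.8 FPKM in Sp1ΔDBD/ΔDBD cells (adjusted p = 0.326). Klf2, Id1 and Junb were not called either (adjusted p = 0.877, 1.0 and 0.962). None of the 7 genes was thus called by limma at this stage, which is another measure than the study's comparison of levels. Both mutant samples of Crip1 lay below both WT samples, and Mdk had a lower mean in the mutant with overlapping samples. Of the 35 genes that the study grouped on these samples as sub-cluster 4.1, 7 fell and 0 rose, which is not independent evidence of their direction. They were Ddit4l, Ghdc, Gramd1a, Hyal1, Renbp, Stap2 and Tmem159, with log2 fold changes from -2.89 in Ddit4l to -1.20 in Hyal1. Renbp, the renin-binding protein, had 21.5 and 21 FPKM in WT and 4.6 and 4.84 FPKM in Sp1ΔDBD/ΔDBD cells (adjusted p = 0.00264). At an unadjusted p under 0.05 limma had 1 higher and 11 lower, and with the samples left out in order 5, 4, 6 and 7 were called lower.

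**Figure D4:**
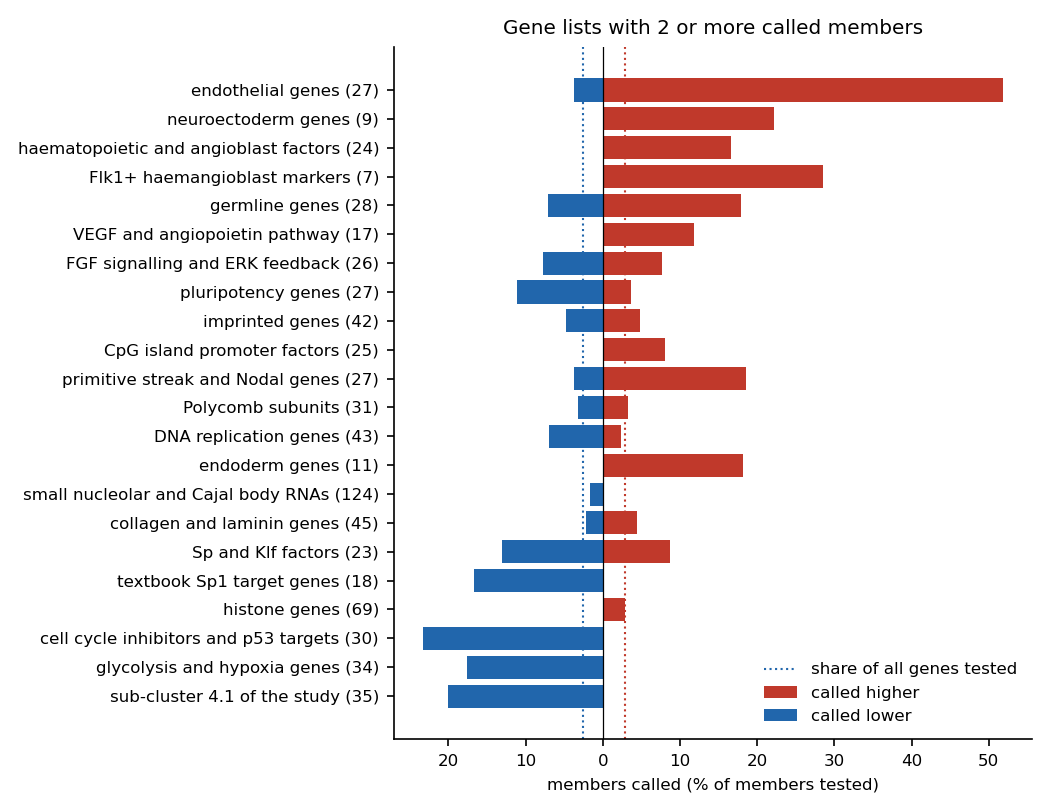
Share of the tested members of each gene list called higher (red, to the right) or lower (blue, to the left) in Sp1ΔDBD/ΔDBD Flk1+ cells, in percent, for lists with at least 2 called members, ordered by median log2 fold change. Numbers in parentheses are members tested, and dotted lines mark the shares among all genes, 2.92% and 2.62%. Endothelial genes have the largest share of rises and the p53 list the largest share of falls.

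Several large groups of housekeeping genes had no calls. Of 85 cytosolic ribosomal protein genes 0 were called, with a median log2 fold change of -0.061, and limma had 7 at an unadjusted p under 0.05. For 75 respiratory chain genes the median was -0.059, with 0 called and 4 at an unadjusted p under 0.05. Of 33 genes of cholesterol and fatty acid synthesis 0 were called, with 1 higher and 8 lower at an unadjusted p under 0.05. Epithelial and mesenchymal genes (25 tested) and BMP pathway genes (28 tested) had 0 calls, with 4 and 2 at an unadjusted p under 0.05. Without regard to direction, and beside 5.54% of all genes, calls were made for proteasome subunits (1 of 38 called), Polycomb subunits (2 of 31), Wnt pathway genes (1 of 40), Notch pathway genes (1 of 23), Hox genes (1 of 22), immediate early genes (1 of 24), integrated stress response genes (1 of 26), collagens and laminins (3 of 45), DNA methylation enzymes (1 of 18), glutathione S-transferases (1 of 21), other factors of CpG island promoters (2 of 25), DNA replication genes (4 of 43) and midkine pathway and LIM-only genes (1 of 14). Both of the endoderm genes called, of 11 tested, rose: Cer1, described above, and Trf, the iron carrier transferrin, with 0.0408 and 0.0351 FPKM in WT and 0.304 and 0.613 FPKM in Sp1ΔDBD/ΔDBD cells (adjusted p = 0.0111). Of the 21 glutathione S-transferases 16 had lower and 3 higher values, with a median log2 fold change of -0.39. At an unadjusted p under 0.05 limma had 0 higher and 5 lower. On the 6 Flk1+ samples alone 5 of them were called lower and 0 higher. Among 69 histone genes 2 were called and among 124 small nucleolar and Cajal body RNAs 2, features that may share reads.

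Genes of chromosome 11 tended to lower values than those of other chromosomes. Chromosome 11 had 1205 tested genes with a median log2 fold change of -0.12, 57 called lower and 19 called higher. The medians of the other 19 chromosomes lay between -0.0046 and 0.073, and 64.3% of the genes on chromosome 11 had lower values in the mutant, beside 43.8% elsewhere. The median of the same genes was -0.20 in mutant ESC, -0.29 in mutant HE1 and -0.34 in mutant progenitor cells, and -0.12 in Sp3-/- Flk1+ cells, which were set against the same WT samples. Between the mutant replicates of Flk1+ cells the median difference on chromosome 11 was 0.013, and between the WT replicates 0.001. Aldoc, Ccng1, Ghdc and Tk1 lie on this chromosome, and so do Icam2, Pecam1 and Lhx1, which rose. After each gene was set against the median of its own chromosome, 375 genes were called higher and 400 lower, in place of 424 and 380.

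**Figure D5:**
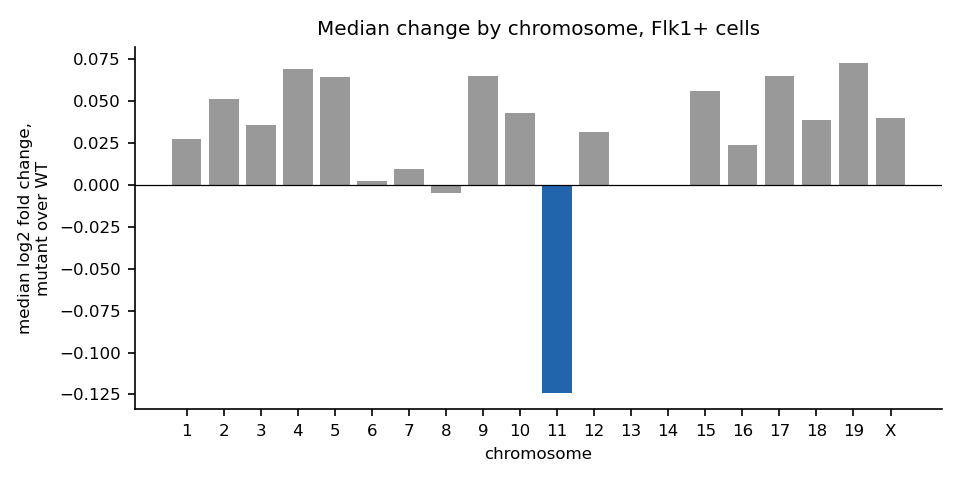
Median log2 fold change of Sp1ΔDBD/ΔDBD over WT Flk1+ cells for the tested genes of each chromosome. The bar of chromosome 11 (blue) reaches -0.12, below all other chromosomes.

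The same mutation was then compared between stages, where WT and mutant samples of ESC and HE1 are other libraries than those of Flk1+ cells. In ESC 65 of the 424 genes called higher in Flk1+ cells were also called higher (15.3% of these and 16% of the 407 called in ESC), and 87 of the 380 called lower were also called lower (22.9% and 18.4% of 473). Of all genes, 2.8% and 3.26% were called higher and lower in ESC and 5.69% and 4.35% in HE1. In HE1 the shared calls were 116 (27.4% of the Flk1+ and 14% of 826 HE1 calls) and 140 (36.8% and 22.2% of 632). Only 11 genes were called in opposite directions in either pair of stages. Across the 14525 genes, which are not independent replicates, the log2 fold changes in Flk1+ cells had a Pearson correlation of 0.239 with those in ESC and 0.424 with those in HE1. The difference between effects itself was tested as an interaction. It passed for 253 genes against ESC (1.74% of genes), 138 with a higher and 115 with a lower effect in Flk1+ cells (0.95% and 0.792% of genes), and for 222 genes against HE1 (1.53%), 99 higher and 123 lower (0.682% and 0.847%). Of the 804 genes called in Flk1+ cells, the effect of 127 differed from that in ESC, of 99 from that in HE1 and of 36 from both, and for most of the called genes a difference between stages was therefore not detected. With the Flk1+ samples left out in order, the numbers against ESC were 73, 41, 77 and 102 higher and 47, 33, 76 and 79 lower, and against HE1 41, 20, 59 and 80 higher and 58, 32, 56 and 95 lower.

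Interactions were read for endothelial genes as well. By the study's methods HE1 cells of both genotypes had been sorted for surface Tie2, the product of Tek. For these genes a difference from HE1 therefore cannot be told apart from the effect of that sort. The effect of 9 of 27 was higher in Flk1+ cells than in HE1 and that of 3 of 27 higher than in ESC. Cdh5 had means of 452 FPKM in WT and 535 FPKM in mutant HE1 cells, a log2 fold change of 0.25 beside 2.28 in Flk1+ cells (interaction adjusted p = 0.0191). Icam2 had log2 fold changes of -0.015 in ESC and -0.35 in HE1, and its Flk1+ effect differed from both (interaction adjusted p = 4.52e-04 and 1.45e-04). For Sp4, Rhox5 and Usp26 no difference from HE1 was detected (interaction adjusted p = 0.179, 0.384 and 0.587). Rhox5 rose by 2.69 on the log2 scale in ESC and by 4.16 in HE1. Mgmt fell in HE1 as well, with a log2 fold change of -7.35, from a mean of 16.5 to 0.00172 FPKM, whereas in ESC its means were 10.5 and 6.95 FPKM (interaction adjusted p = 2.59e-05). Fah followed the same pattern, with log2 fold changes of -0.59 in ESC and -4.66 in HE1 (interaction adjusted p = 0.0110 against ESC and 0.532 against HE1). Aspg had a deeper fall in Flk1+ cells, with -1.60 in ESC and -0.57 in HE1 (interaction adjusted p = 0.00759 and 0.00179). Of the p53 targets, Phlda3 had log2 fold changes of 0.00017 in ESC and -0.54 in HE1, both smaller in size than in Flk1+ cells (interaction adjusted p = 6.10e-04 and 0.00878). Cdkn1a rose in mutant ESC (log2 fold change 0.95, adjusted p = 0.00628) and fell in Flk1+ cells (interaction adjusted p = 6.89e-04). Of 34 glycolysis and hypoxia genes, 6 were called lower and 1 higher in mutant ESC, and 1 lower and 3 higher in mutant HE1. Cholesterol and fatty acid synthesis, without a call in Flk1+ cells, had 20 of 33 genes called higher in HE1, and the effect of 11 of the 33 was lower in Flk1+ cells than in HE1 by the interaction test.

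Finally, the values of Sp3-/- Flk1+ cells are set beside those of the Sp1 mutant. Both comparisons use the same 2 WT samples, so that a shared direction is not independent evidence. Otx2 had 20.9 and 23.1 FPKM in Sp3-/- cells, Cdh5 had 5.42 and 4.85 FPKM, and Cfc1 had 16.7 and 31.3 FPKM. Log2 fold changes in Sp3-/- cells were 2.77 for Icam2, -1.15 for Phlda3 and -1.40 for Ccng1, beside 3.13, -1.79 and -1.08 in the Sp1 mutant. Mgmt and Fah, in contrast, had -0.68 and -0.20 in Sp3-/- cells (adjusted p = 0.225 and 0.837). Mest fell in Sp3-/- cells, with 26.5 and 20.4 FPKM and a log2 fold change of -1.62, where it rose in the Sp1 mutant. Among 27 endothelial genes, 12 were called higher in Sp3-/- cells, beside 6.69% of all genes there (5.94% were called lower), and 14 in Sp1ΔDBD/ΔDBD cells. Other lists were called in Sp3-/- cells too. Of 27 primitive streak and Nodal genes 11 were higher and 1 lower, and of 34 glycolysis and hypoxia genes 1 and 10. Of 30 genes of the p53 list 3 were higher and 8 lower, and of 28 germ line genes 2 and 1.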

How the data were processed

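RNA-seq of WT, Sp1ΔDBD/ΔDBD and Sp3-/- E14 cells in 5 populations (15 groups, 2 samples each, 30 in all) was analysed. The authors prepared stranded, ribosomal RNA-depleted libraries in duplicate, aligned reads to mm10 with HISAT2 2.1.0, estimated expression with StringTie 1.3.3 and quantile-normalised the values, and the deposited table holds these FPKM values. No counts were used, so the depth of each sample is unknown and no counting interval is given, and quantile normalisation can give different samples the same value. Samples were grouped by genotype and population labels. Genes above 1 FPKM in any sample were fitted as log2(FPKM + 0.1) by limma 3.58.1 (R 4.3.3) with 15 group means and an intensity trend, and p-values were adjusted by Benjamini-Hochberg over 14525 genes. A fold change on this scale understates changes of low genes. The fit was tested on simulated data. The members and the 39 gene lists were chosen with earlier results of these data known. Named genes were the Sp and Klf family, the 12 largest rises and falls with a mean above 3 FPKM and no overlap (3 more each for features likely to share reads), called list members with up to 4 others, the 5 most significant genes per direction in each interaction, and genes the study names. Alternatives were a pseudocount of 1, no filter, the replicate number as a block, each sample left out, fewer samples, chromosome centring, and a GC and length correction. Gene positions and sequences came from RefSeq tables for GRCm38.p6 and GENCODE annotation, and 14559 of 14685 symbols matched. Results for a few genes are not reported here.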

Additional observations from a re-analysis of the deposited data

Results flagged for a closer look

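The effect of the Sp1 mutation differed between Flk1+ cells and ESC for 40 of the 186 named genes and between Flk1+ cells and HE1 for 33, by the interaction test of limma at an adjusted p under 0.05. Over all genes tested the shares were 1.74% and 1.53%. Genes were named in part for being called in Flk1+ cells or most significant in these interactions. The counts were thus partly set by that choice. Each value below is the log2 fold change in Flk1+ cells minus that at the other stage, so that a positive value means a higher effect in Flk1+ cells. No cause of these differences was tested.

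Against ESC, the difference was 2.33 for Rhox5, 3.14 for Icam2, 4.06 for Jakmip1, 1.93 for Ulbp1, 3.11 for Aim2, 2.76 for Ctse and 2.71 for Optc among the largest rises. Among the largest falls it was -5.33 for Mgmt, -3.36 for Got1l1, -3.69 for Aspg, -3.42 for Cyp4f13, -3.54 for Apoc1, -2.77 for Fggy and -3.11 for Fah, and -2.08 for 2410003L11Rik, a feature that may share reads. Among endothelial and blood genes the values were 2.56 for Tek, 4.42 for Cd34 and 1.44 for Car2. Genes of streak, endoderm and early cell identity had -2.15 for Prdm14, -3.62 for Cfc1, 3.18 for Cer1, 2.49 for Trf and 2.41 for Zic2. Values for germ line and imprinted genes were 2.52 for Tex11, -2.01 for Cpt1c, -3.38 for H19 and 2.94 for Pramel6. The p53 and cell cycle genes had -2.13 for Cdkn1a, -1.79 for Phlda3, -1.96 for Rprm and 1.34 for Ccne1. The others were 1.13 for Hist2h2bb, -4.18 for Snord123, 2.48 for Col14a1, -1.89 for Col9a1 and -2.29 for Ddit4l, with 0.82 for Ldha, 4.09 for Mt4, 0.99 for Rcn1 and -2.05 for Slc12a4.

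Against HE1, endothelial genes made up the largest group among the named genes, which include every called member of that list. Their values were 3.48 for Icam2, 2.03 for Cdh5, 1.72 for Pecam1, 2.07 for Tek and 2.71 for Esam. Plvap had 1.94, Cd34 3.28, Rasip1 1.63 and S1pr1 1.43. The vascular genes Sox18 and Gja5 followed, with 3.26 for Sox18 and 4.76 for Gja5. All of these were positive, and HE1 cells had been sorted for Tie2, the product of Tek. The largest falls had -4.73 for Aspg, -5.44 for Hpn and -3.44 for Aldoc, and the largest rises 3.61 for Jakmip1 and 2.70 for Optc. Streak and germ line genes had -3.47 for Cfc1, 3.54 for Cer1, 3.02 for Prdm1 and -1.36 for Cpt1c. The p53 targets had -1.19 for Ccng1 and -1.26 for Phlda3. Genes of the study's sub-cluster 4.1 had 3.0 for Renbp and 4.95 for Tmem159. The others were -0.56 for Prim2, -1.56 for Snhg6, -1.99 for Col9a1 and -1.11 for Slc12a4, with 2.52 for Ccdc8, 4.22 for Car8, -2.39 for Cbx7, -1.71 for Lss and -3.16 for Unc5c. Hist2h2bb stood at 1441 FPKM in both mutant samples, a tie that quantile normalisation can produce.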

How the results depend on the processing

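Against 424 genes called higher and 380 lower, limma gave 267 higher (and 337 lower) on the 6 Flk1+ samples alone, 0 and 0 on the 4 samples alone (3449 at an unadjusted p under 0.05), 679 and 635 with a GC and length correction and the replicate block, and 117 to 211 and 137 to 252 with 1 sample left out. The cause was not tested, apart from the smaller number of samples. For effects higher and lower than in ESC (138 and 115), a pseudocount of 1 gave 210 and 197, the GC correction with the block 222 and 188, and leaving out a sample 41 to 102 and 33 to 79. For HE1 (99 and 123) these were 153 for the higher effects with a pseudocount of 1, 191 and 224, and 20 to 80 and 32 to 95. The fold rule (174 and 279) gave 569 and 682 above 1.5-fold and 338 and 464 with a mean above 1 FPKM. The replicate block alone gave 510 and 443. The numbers share no stated origin, and same-numbered WT and mutant samples had deviations correlated at 0.249 over 11435 genes, with 0.0096 for WT and Sp3-/-. Under this pairing 115 of 125 called named genes stayed called, and the glycolysis falls went from 6 to 9, or 12 with the GC and length correction added. Genes not called changed sign: Sp2 (-0.18 to 0.12 with a sample left out, 0.095 centred by chromosome), Klf2 (-0.83 to 0.34), Kdr (-0.28 to 0.36, -0.025 centred, -0.031 GC-corrected), Tal1 (-0.21 to 0.62), Pou5f1 (-0.68 to 0.77, -0.018 centred), Id1 (-0.25 to 0.22, 0.066 GC-corrected), Stat6 (-1.38 to 0.0060), Junb (-0.56 to 0.36) and Lss (-0.0089 to 0.39). No called named gene reversed under any alternative run. With depth unknown, the counting error of low genes cannot be given. Interactions were not run on fewer Flk1+ samples.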

Other observations

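Further called genes of the lists counted above are given here. Called genes outside the lists were not sorted by function. Fzd10, a Wnt receptor of the Frizzled family, had 5.38 and 4.53 FPKM in WT and 11.7 and 15.4 FPKM in Sp1ΔDBD/ΔDBD cells (log2 fold change 1.43, limma adjusted p = 0.00162) and was called with any 1 of the 4 samples left out. Col9a1, a chain of collagen IX, had 2.95 and 3.04 FPKM in WT and 0.574 and 0.829 FPKM in Sp1ΔDBD/ΔDBD cells (log2 fold change -1.97, adjusted p = 7.96e-05) and also kept its call each time. Col14a1, a fibril-associated collagen, had 2.55 and 1.37 FPKM in WT and 8.09 and 9.89 FPKM in Sp1ΔDBD/ΔDBD cells (adjusted p = 0.00191). Of the cell cycle genes, cyclin E1 (Ccne1) had 25 and 23 FPKM in WT and 48.7 and 39 FPKM in Sp1ΔDBD/ΔDBD cells (adjusted p = 0.0137), the primase subunit Prim2 had 35 and 39 FPKM in WT and 26.4 and 30.1 FPKM in Sp1ΔDBD/ΔDBD cells (adjusted p = 0.0216) and the polymerase subunit Pold2 had 78.9 and 73.6 FPKM in WT and 55.2 and 51 FPKM in Sp1ΔDBD/ΔDBD cells (adjusted p = 0.0384), so that DNA replication genes did not move in 1 direction.

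Pck2, a mitochondrial enzyme of the stress response, had 18.9 and 16.9 FPKM in WT and 5.06 and 6.14 FPKM in Sp1ΔDBD/ΔDBD cells (adjusted p = 0.0416), and Gstz1, which acts in the step before Fah in tyrosine breakdown, had 18.9 and 19.7 FPKM in WT and 12.3 and 12.2 FPKM in Sp1ΔDBD/ΔDBD cells (adjusted p = 0.00753). Both fell, as Fah did. The Polycomb subunits Pcgf5 and Phc1 went in opposite directions, with log2 fold changes of -0.93 and 0.58. Nfyc and E2f6, factors of CpG island promoters, rose by 0.46 and 0.47, and Mbd1, which binds methylated DNA, rose by 0.66 on the log2 scale. Hoxb1, an early Hox gene, had 3.55 and 2.95 FPKM in WT and 9.55 and 7.21 FPKM in Sp1ΔDBD/ΔDBD cells (adjusted p = 0.0481), and Itga6, an integrin subunit, had 14.9 and 15.6 FPKM in WT and 30.8 and 27.7 FPKM in Sp1ΔDBD/ΔDBD cells (adjusted p = 0.0272). Apart from Fzd10 and Col9a1, each gene named in these paragraphs other than Fah lost its call when 1 of the 4 samples was left out.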
